A study of Rattus norvegicus with 6 samples.

Results

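Bdh1 and the other genes of ketone body use are followed here across hearts released from aortic narrowing, hearts under it and normal hearts. The 6 genes Bdh1, Bdh2, Oxct1, Acat1, Slc16a1 and Slc16a7 were taken by their gene symbol from 15037 named genes on 23188 tested rows, and each had 1 row on the array. RNA of whole hearts from male Sprague-Dawley rats, an outbred laboratory strain, given as 10 weeks old, was measured on 6 single-channel Clariom S Rat microarrays, 2 in each of 3 groups. TAC-R hearts had been released from TAC, TAC hearts had a silk ligature tied around the transverse aorta, which loads the left ventricle, and normal hearts served as controls. Whether normal rats had a sham operation is not stated, and neither is how long the ligature stayed on or how long after release the hearts were taken. The labels do not tie the 2 arrays of a group to separate animals, so each p-value reflects the scatter of these arrays alone, possibly only technical scatter.

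Ketone bodies are small fuels that the liver makes from fatty acids and that the heart burns. Beta-hydroxybutyrate and acetoacetate enter the cell through monocarboxylate transporters, and Bdh1 in mitochondria oxidises beta-hydroxybutyrate to acetoacetate. Oxct1 then passes coenzyme A from succinyl-CoA to acetoacetate, and Acat1 splits the product into acetyl-CoA for the citric acid cycle. Hearts that fail under pressure overload are known for taking a larger part of their energy from ketone bodies and a smaller part from fatty acids.

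All values are log2 signals that the authors made with robust multi-array averaging (RMA), which gives the arrays like distributions and so hides any change shared by all transcripts. A row was held against the 95th percentile of the negative control probes of its own array, which lay between 8.089 and 8.547, and signals below it are called background. The medians of the arrays lay between 5.308 and 5.39, and arrays of 1 group correlated across rows at 0.991 for TAC-R, 0.993 for TAC and 0.993 for normal hearts. The labels' extraction text speaks of cultured fibroblasts, whereas the other fields speak of whole heart. Of 12 cardiomyocyte markers 11 had a named row, all 11 were above background on every array, and 4 of them (Actc1, Mb, Myl3 and Pln) sat at the ceiling of 19.9315 on all 6 arrays. Tnni3 was flat below it, at 19.8793 on all 6 arrays. Differences of very bright genes may thus be compressed below the ceiling too, which was not tested.

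Bdh1, the mitochondrial dehydrogenase that takes up beta-hydroxybutyrate oxidation, had signals of 16.06 and 15.94 in TAC-R hearts, 17.42 and 17.17 in TAC hearts, and 14.65 and 14.37 in normal hearts. Both TAC arrays lay above both TAC-R arrays, and both TAC-R arrays lay above both normal arrays, with no overlap between any of the groups. Such separation was found in 43.3% of all rows between TAC and normal hearts, 40.5% between TAC-R and TAC hearts and 40.9% between TAC-R and normal hearts. The Bdh1 group means were 16.00 ± 0.09 in TAC-R hearts, 17.29 ± 0.18 in TAC hearts and 14.51 ± 0.20 in normal hearts (SD, n = 2 each). The gene was singled out for its difference on these same arrays, so its values are a description and no test is given for them.

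The Bdh1 signal was 6.90-fold higher in TAC hearts than in normal hearts, a difference of 2.79 log2 units. It was 2.46-fold lower in TAC-R hearts than in TAC hearts (-1.30) and 2.81-fold higher in TAC-R hearts than in normal hearts (1.49). The released hearts stood between the other groups, with 53.5% of the TAC difference still present on the log2 scale and 30.7% on the linear scale. By size, regardless of sign, the difference between TAC and normal hearts ranked 11 among all 23188 rows, and 7 among the 6207 rows whose mean signal was above background. The difference between TAC-R and TAC hearts ranked 186 and 93 in the same sets, and that between TAC-R and normal hearts 61 and 25. The 3 differences share arrays and are not independent of each other.

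**Figure D1:**
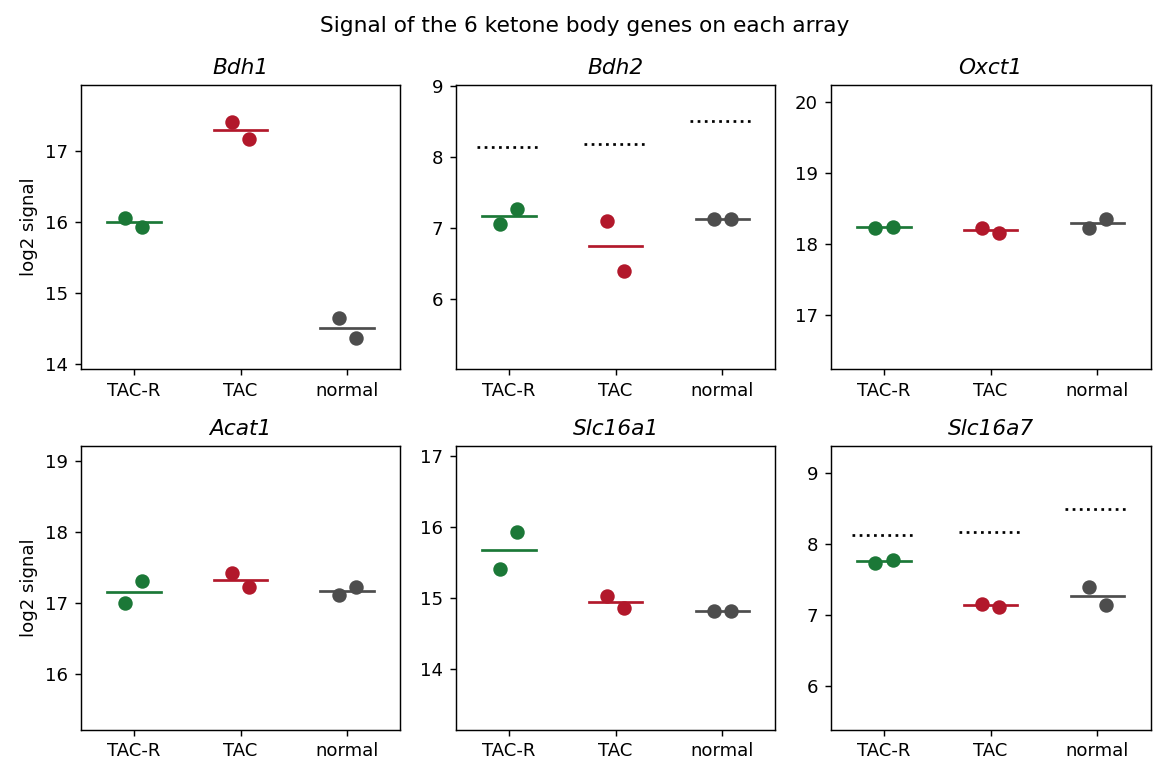
Log2 signal (vertical axis) of each of the 6 genes on each array, in TAC-R, TAC and normal hearts. Points are arrays, horizontal lines are group means, every panel has the same span, and dotted lines in the Bdh2 and Slc16a7 panels mark the group's mean 95th percentile of the negative controls. Bdh1 separates into 3 levels, highest in TAC hearts, whereas the groups overlap for Oxct1 and Acat1.

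The promoter of Bdh1 is printed here beside that of Oxct1, the next enzyme of the pathway, to show the sequence ahead of the member with the greatest difference and of one that passed no test. Each is the 250 bases before the gene's start in RefSeq's table, on build GRCr8, read 5′ to 3′ on the gene's strand. Capitals mark the GC box GGGCGG on either strand.
Bdh1 (chr11:82842637-82842886, minus strand): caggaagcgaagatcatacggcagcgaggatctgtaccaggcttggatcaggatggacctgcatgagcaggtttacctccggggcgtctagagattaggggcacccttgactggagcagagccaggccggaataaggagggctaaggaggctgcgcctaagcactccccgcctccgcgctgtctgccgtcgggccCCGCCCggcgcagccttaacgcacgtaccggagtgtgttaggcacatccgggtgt
Oxct1 (chr2:54963714-54963963, plus strand): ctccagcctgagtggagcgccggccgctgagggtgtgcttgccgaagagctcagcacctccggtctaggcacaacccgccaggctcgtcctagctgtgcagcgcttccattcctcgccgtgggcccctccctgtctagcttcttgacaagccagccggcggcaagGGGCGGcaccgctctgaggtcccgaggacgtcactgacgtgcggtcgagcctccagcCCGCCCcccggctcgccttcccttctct
The Bdh1 window held 1 GC box and the Oxct1 window 2, and 4 of the 6 members had at least 1, as did 30.5% of 33465 rat promoters of the same length. The half-site AGGTCA, which nuclear receptors such as Ppara can bind, and the TATA box TATAAA were in none of the 6 windows, searched on both strands, and in 14.1% and 12.9% of all promoters. CCAAT was found in the Acat1 window alone among the members and in 34% of all promoters. The G and C content was 62.8% for Bdh1 and 68.8% for Oxct1, against a median of 51.2% over all promoters. These matches describe letters in a window, and no array value here bears on binding to them.

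For the enzymes that act after Bdh1 no difference passed the test. Oxct1, which activates acetoacetate and sets apart tissues that can burn ketone bodies from the liver, had signals of 18.24 and 18.24 in TAC-R hearts, 18.24 and 18.16 in TAC hearts, and 18.23 and 18.36 in normal hearts. The groups overlapped in every comparison. The difference between TAC and normal hearts was -0.10, with a 95% interval from -0.57 to 0.37 (limma, adjusted p = 0.904). Between TAC-R and TAC hearts it was 0.04, from -0.43 to 0.51 (limma, adjusted p = 0.967), and between TAC-R and normal hearts -0.06, from -0.53 to 0.40 (limma, adjusted p = 0.944). Intervals here are for single genes and not adjusted for the number of rows.

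Acat1, the mitochondrial thiolase of the last step, had signals of 17.00 and 17.31 in TAC-R hearts, 17.43 and 17.23 in TAC hearts, and 17.12 and 17.23 in normal hearts. Here too the groups overlapped in every comparison. TAC hearts differed from normal hearts by 0.15, with an interval from -0.35 to 0.66 (limma, adjusted p = 0.851). TAC-R hearts differed from TAC hearts by -0.17, from -0.68 to 0.33 (limma, adjusted p = 0.829), and from normal hearts by -0.02, from -0.53 to 0.49 (limma, adjusted p = 0.986). For both enzymes, differences as large as the ends of these intervals are not shown to be absent.

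Bdh2, a cytosolic short-chain dehydrogenase named after the same reaction, lay in the background on all 6 arrays. Its signals were 7.06 and 7.27 in TAC-R hearts, 7.09 and 6.39 in TAC hearts, and 7.12 and 7.12 in normal hearts. A single array, TAC replicate 2, was lower than the rest. No comparison passed (limma, adjusted p = 0.652 for TAC against normal, 0.634 for TAC-R against TAC and 0.977 for TAC-R against normal), and at this signal no size of difference is measured.

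Of the transporters, Slc16a1 (MCT1) carries lactate, pyruvate and ketone bodies across the cell membrane with protons. Its signals were 15.41 and 15.93 in TAC-R hearts, 15.02 and 14.86 in TAC hearts, and 14.81 and 14.81 in normal hearts. Both TAC-R arrays lay above the other 4, and both TAC arrays lay just above both normal arrays. TAC-R hearts were 0.73 log2 units above TAC hearts, with an interval from 0.18 to 1.28 (limma, unadjusted p = 0.0148, adjusted p = 0.308), and 0.86 above normal hearts, from 0.31 to 1.40 (limma, unadjusted p = 0.00644, adjusted p = 0.304). Neither difference passed after adjustment over all rows. With a moderation of the variance that follows signal intensity, limma gave adjusted p = 0.0387 and 0.026 for these 2 differences, so the call depends on that choice. The size rested partly on TAC-R replicate 2, without which the differences were 0.47 from TAC hearts and 0.60 from normal hearts, and without TAC-R replicate 1 they were 0.99 and 1.12. TAC and normal hearts differed by 0.13, from -0.42 to 0.68 (limma, adjusted p = 0.895).

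Slc16a7 (MCT2), a transporter of the same family with a higher affinity for its substrates, was in the background on all arrays. Its signals were 7.74 and 7.78 in TAC-R hearts, 7.16 and 7.11 in TAC hearts, and 7.39 and 7.14 in normal hearts. The TAC-R arrays were again the highest, at a level where sizes are not measured, and no comparison passed (limma, adjusted p = 0.871 for TAC against normal, 0.323 for TAC-R against TAC and 0.454 for TAC-R against normal).

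**Figure D2:**
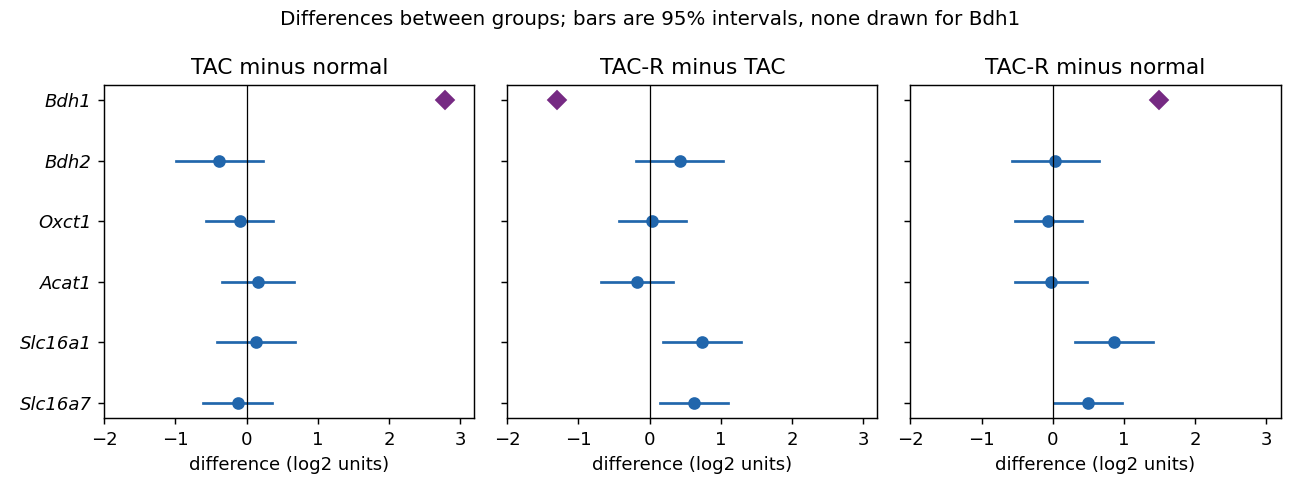
Difference in log2 signal (horizontal axis) of each gene in TAC minus normal, TAC-R minus TAC and TAC-R minus normal hearts, 2 arrays per group. Circles with bars are differences and 95% intervals from limma, and the diamond for Bdh1 carries no interval because the gene was chosen for its difference. Slc16a1 lies 0.73 and 0.86 above 0 in the comparisons with TAC-R hearts, and Oxct1 and Acat1 lie close to 0 in every panel.

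Setting Bdh1 apart, limma called 0 of the 5 other members in each comparison, at an adjusted p under 0.05. It called 0.254% of all rows between TAC and normal hearts, 0.431% between TAC-R and TAC hearts and 0.0906% between TAC-R and normal hearts. At an unadjusted p under 0.05 the counts were 0 of 5 for TAC against normal, 2 for TAC-R against TAC and 2 for TAC-R against normal, Slc16a1 and Slc16a7 both times. The shares of all rows at that unadjusted threshold were 10.3% for TAC against normal, 11% for TAC-R against TAC and 10.7% for TAC-R against normal. Across the 6 arrays the Pearson correlation with Bdh1 was 0.433 for Acat1, 0.159 for Slc16a1, -0.128 for Slc16a7, -0.492 for Bdh2 and -0.708 for Oxct1, a description over arrays that share groups.

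The wider ketone pathway was followed through 26 further genes with a named row. Of these limma called 0 in each comparison, with 4 at an unadjusted p under 0.05 for TAC against normal, 1 for TAC-R against TAC and 4 for TAC-R against normal, beside 10.3%, 11% and 10.7% of all rows. The median difference over the 26 genes was -0.12 for TAC against normal hearts, 0.04 for TAC-R against TAC hearts and -0.06 for TAC-R against normal hearts. Over all rows the same medians were 0.00 each, and over the 6207 rows with a mean above background 0.08, 0.01 and 0.09. Only 10 of the 26 genes were above background on all arrays. The medians over the 26 genes thus mix in background signals, whose differences have no measured size. Between TAC and normal hearts the groups did not overlap for 6 genes that were higher and 5 that were lower, a share of 42.3% beside 43.3% of all rows. Between TAC-R and normal hearts they did not overlap for 6 that were higher and 7 that were lower, beside 20.6% and 20.3% of all rows.

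For synthesis, Acat2, a cytosolic thiolase, and Hmgcll1, a lyase, were both in the background on all arrays. The acetoacetyl-CoA synthetase gene Aacs, which uses acetoacetate in the cytosol, was in the background as well. The subunits of succinyl-CoA synthetase use the same succinyl-CoA as Oxct1, and none passed the test in any comparison. Sucla2 averaged 15.88 ± 0.09 in TAC-R, 15.91 ± 0.02 in TAC and 15.96 ± 0.03 in normal hearts, and Suclg1 averaged 15.29 ± 0.22 in TAC-R, 15.20 ± 0.04 in TAC and 15.09 ± 0.16 in normal hearts (SD, n = 2 each). Suclg2 had 12.04 and 12.31 in TAC-R hearts, 12.46 and 12.46 in TAC hearts, and 12.52 and 12.62 in normal hearts, each group below the next without overlap. The TAC-R hearts lay 0.40 below normal hearts for it, which did not pass (limma, adjusted p = 0.546).

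Among further carriers, Slc16a6, a monocarboxylate carrier that exports ketone bodies from liver in zebrafish, had 9.79 and 10.13 in TAC-R hearts, 9.74 and 9.90 in TAC hearts, and 9.33 and 8.999 in normal hearts. Both the TAC and the TAC-R hearts lay above the normal hearts. The differences were 0.65 for TAC against normal and 0.80 for TAC-R against normal, and neither passed (limma, adjusted p = 0.406 and 0.312). Bsg, basigin, the partner protein that brings MCT1 to the membrane, had 14.26 and 14.10 in TAC-R hearts, 14.14 and 14.34 in TAC hearts, and 13.93 and 13.71 in normal hearts. Both of these groups again lay above the normal hearts, by 0.42 for TAC and 0.36 for TAC-R, and neither difference passed (limma, adjusted p = 0.539 and 0.591).

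Emb, embigin, which serves MCT2 as Bsg serves MCT1, had 6.32 and 5.91 in TAC-R hearts, 7.30 and 7.42 in TAC hearts, and 5.25 and 6.15 in normal hearts. Its TAC arrays were the highest, but all 6 signals lay in the background, so the difference of 1.66 between TAC and normal hearts has no measured size (limma, adjusted p = 0.112). With the intensity trend and with centring of the arrays on their medians limma gave adjusted p = 0.0326 and 0.0472 for it, and over all other settings tried values from 0.0697 to 0.415. Slc16a3, Slc16a8, Slc5a8 and Slc5a12, all carriers of monocarboxylates, were in the background on every array. So were the receptor genes Hcar2, which beta-hydroxybutyrate activates, Hcar1, the lactate receptor, and Ffar3, a receptor of short-chain fatty acids.

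Of the regulators, Ppara, a nuclear receptor that turns on fatty acid and ketone genes, had 13.12 and 12.54 in TAC-R hearts, 12.85 and 12.86 in TAC hearts, and 12.51 and 12.43 in normal hearts. Both the TAC and the TAC-R hearts lay above the normal hearts, by 0.39 for TAC and 0.36 for TAC-R, which did not pass (limma, adjusted p = 0.612 and 0.629). Ppargc1a, a coactivator of mitochondrial genes, differed by -0.01 between TAC and normal hearts and by 0.01 between TAC-R and TAC hearts, in each case with an SE of 0.205. Ppard, Esrra, Esrrg, Ppargc1b and the mitochondrial deacetylase gene Sirt3 had differences between TAC and normal hearts of 0.48, 0.40, -0.08, -0.24 and -0.02, and none passed (limma, adjusted p = 0.532, 0.602, 0.931, 0.772 and 0.989). Sirt3 was above background on 1 TAC-R array and on none of the others. Pparg, Fgf21, a hormone of fasting, and Foxa2 were in the background on all arrays.

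**Figure D3:**
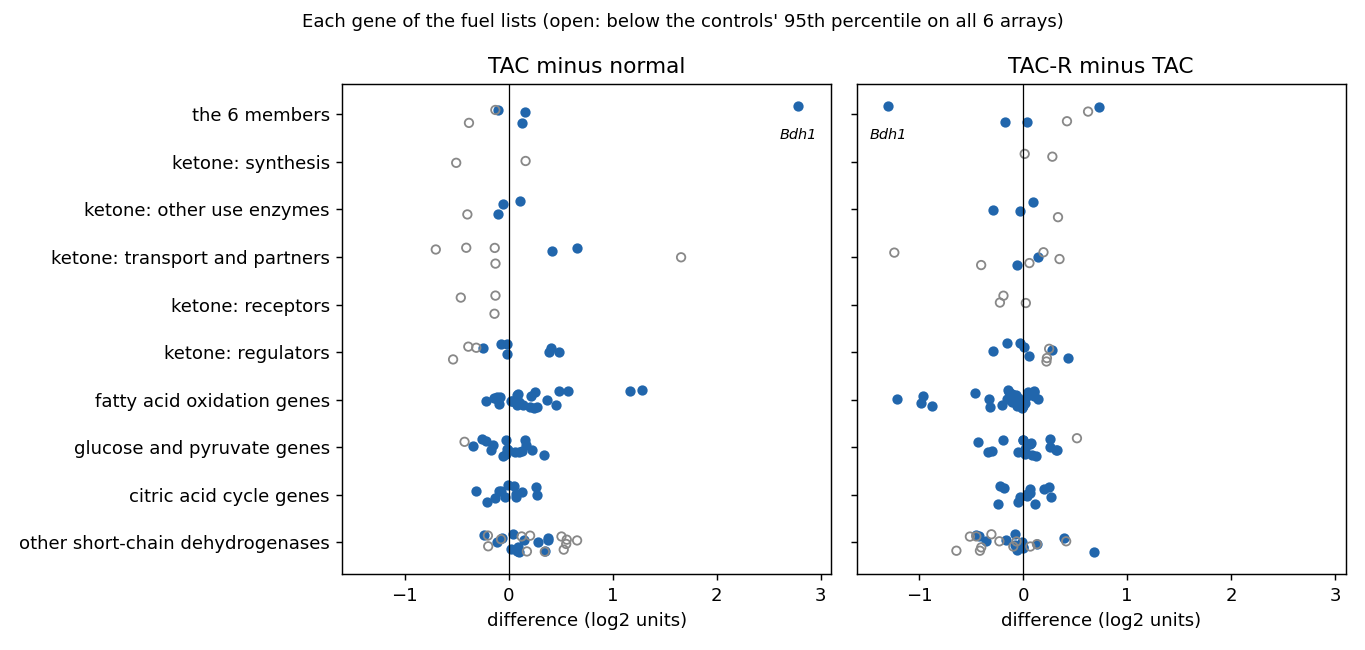
Difference in log2 signal (horizontal axis) of every gene in the ketone and other fuel lists, for TAC minus normal hearts on the left and TAC-R minus TAC hearts on the right. Each point is a gene, spread vertically within its list to avoid overlap, and open points were in the background on all 6 arrays. Bdh1 stands at 2.79 on the left and -1.30 on the right, and Emb at 1.66 and -1.24 is the open point farthest out.

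The other fuel pathways were set beside Bdh1. Of 25 measured genes of fatty acid oxidation limma called 0 in each comparison, with 3 at an unadjusted p under 0.05 for TAC against normal, 4 for TAC-R against TAC and 2 for TAC-R against normal, beside 10.3%, 11% and 10.7% of all rows. Both TAC arrays lay above both normal arrays for 15 of the 25 and below them for 4, beside 21.9% and 21.3% of all rows. Of these 25 genes 24 were above background on all arrays, and among the 6207 rows with a mean above background the shares were 32.2% and 17.6%. The median difference was 0.10 for the list and 0.08 for those rows. Between TAC-R and TAC hearts 2 lay above and 12 below, beside 20.1% and 20.4% of all rows and 24.3% and 24% of the rows above background. The median was -0.10 for the list and 0.01 for those rows. Acot2, a mitochondrial thioesterase, had 14.31 and 14.09 in TAC-R hearts, 14.87 and 15.27 in TAC hearts, and 13.84 and 13.74 in normal hearts, the order seen for Bdh1. Its difference between TAC and normal hearts was 1.28 ± 0.23 (SE; limma, adjusted p = 0.101). Ucp3, a mitochondrial carrier, had 8.39 and 8.35 in TAC hearts and background signals in TAC-R and normal hearts. Hadh, which carries out the dehydrogenase step of fatty acid oxidation, differed by 0.57 ± 0.21 between TAC and normal hearts (SE; limma, adjusted p = 0.413).

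Of 18 genes of glucose and pyruvate use limma called 0 in each comparison, and 0 had an unadjusted p under 0.05. Their differences between TAC and normal hearts ran from -0.42 to 0.34, the ends being Pdk3, in the background, and Pdk1, a kinase that holds back pyruvate dehydrogenase. Hk1, a hexokinase, differed by -0.34 (limma, adjusted p = 0.62). Ldhb, in the list, stood at 19.6495 on every TAC-R and normal array, a flat value below the ceiling. The list does not cover all of glycolysis. Eno1, a glycolytic enzyme gene outside it, was called, at 2.02 log2 units higher in TAC than in normal hearts (limma, adjusted p = 0.0118). The 13 measured genes of the citric acid cycle, which burns the acetyl-CoA from all these fuels, also gave 0 calls in limma and 0 at an unadjusted p under 0.05 in each comparison. Their differences between TAC and normal hearts ran from -0.31 for Sdha to 0.27 for Sdhd, with Mdh2 at 0.26 (limma, adjusted p = 0.638, 0.711 and 0.692). Cs, Idh2 and Ogdh here, and Fabp3, Lpl and Acsl1 of the fatty acid list, averaged 18.95 to 19.36 in normal hearts. So high on the scale, differences near 0 are not shown to be measured stability.

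Bdh1 belongs to the short-chain dehydrogenases, an enzyme family built around a fold that binds NAD or NADP. Of 25 other members of that family limma called 0 in each comparison, with 2 at an unadjusted p under 0.05 for TAC against normal, 1 for TAC-R against TAC and 3 for TAC-R against normal, beside 10.3%, 11% and 10.7% of all rows. Their differences between TAC and normal hearts ran from -0.24 to 0.66, and the 3 of greatest size, Dhrs1, Hpgd and Cbr4, were in the background on all arrays. The genes that neighbour Bdh1 on its chromosome were looked at as well, 5 protein-coding genes on each side in RefSeq's order on GRCr8. Of the 10, 7 had a row, Ncbp2, Meltf and Dlg1 on one side and Apod, Ppp1r2, Acap2 and Fam43a on the other. Their differences between TAC and normal hearts ran from -0.45 to 0.30, and limma called 0 in each comparison, with 0, 1 and 1 of 7 at an unadjusted p under 0.05, beside 10.3%, 11% and 10.7% of all rows. Dlg1, a scaffold protein gene directly beside Bdh1, differed by -0.12 between TAC and normal hearts and by 0.59 between TAC-R and TAC hearts (limma, adjusted p = 0.885 and 0.342).

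To see which genes shared the pattern of Bdh1, Pearson's r was taken over the 6 arrays among 627 other named genes with a mean signal above background, no array at the ceiling and a range of at least 1 log2 unit. The 10 most alike were Usp18 (0.996), Alas2 (0.993), Ctsh (0.989), Ppp6r2 (0.982), Hbbl1 (0.981), Ucp2 (0.979), Eno1 (0.979), Wfdc1 (0.976), Ly6c (0.972) and Ppp1r16b (0.970). These values are chosen extremes from 6 arrays in 3 pairs and carry no test. Usp18 is an interferon-induced protease, Alas2 makes the first step of haem in red cell precursors, Hbbl1 is a beta-globin gene and Ctsh is a lysosomal protease. Ucp2, a carrier of the inner mitochondrial membrane, had 17.31 and 16.79 in TAC-R hearts, 18.22 and 18.14 in TAC hearts, and 16.15 and 16.18 in normal hearts. The glycolytic enzyme gene Eno1 had 15.60 and 15.67 in TAC-R hearts, 16.23 and 16.43 in TAC hearts, and 14.50 and 14.13 in normal hearts. For both, as for Bdh1, the 3 groups did not overlap and TAC-R hearts lay in the middle. For Usp18, Alas2, Wfdc1, Ly6c and Ppp1r16b both normal arrays were in the background. The 5 genes most opposed to Bdh1 were Rab18 (-0.985), Itga6 (-0.974), Rapgef5 (-0.951), Adamts1 (-0.946) and Gramd1b (-0.943), all above background in normal hearts. For Adamts1 both TAC arrays were in the background.

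**Figure D4:**
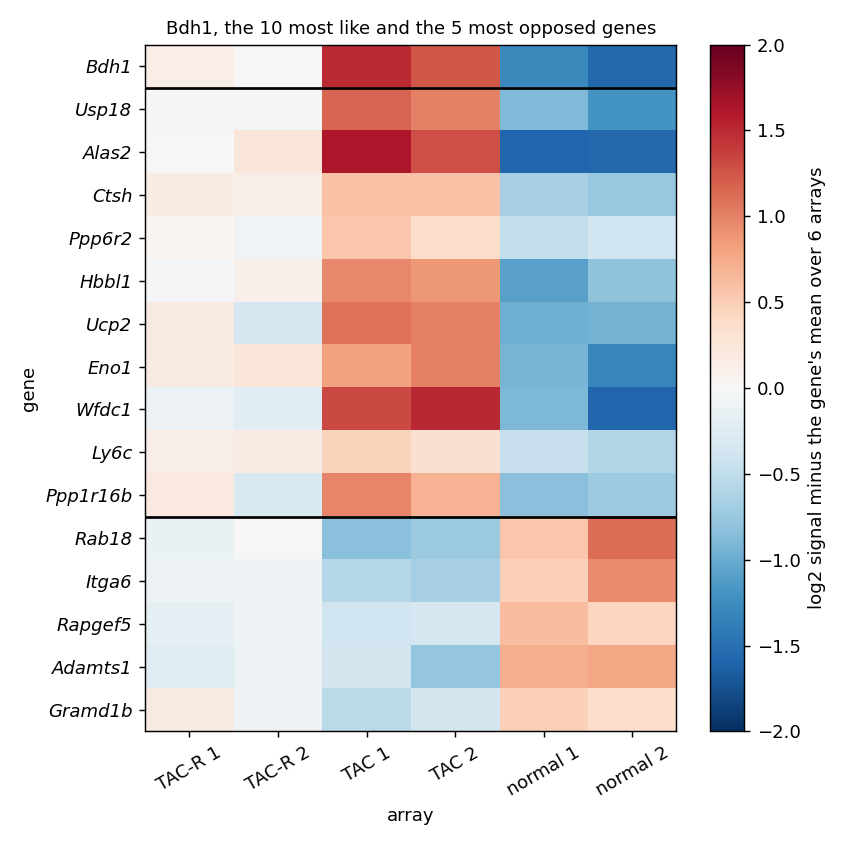
Log2 signal of each gene minus its mean over the 6 arrays (colour, red above and blue below), for Bdh1 at the top, the 10 genes most like it and the 5 most opposed, on the 6 arrays in columns. TAC columns are red in the upper blocks, normal columns blue, and TAC-R columns pale, with the colours of TAC and normal turned round in the bottom block.

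Markers of other cell types moved in the same groups. Of 10 erythroid markers 8 were measured, and their mean log2 signal was 11.17 to 11.29 in TAC-R hearts, 12.35 to 12.50 in TAC hearts and 10.33 to 10.58 in normal hearts, the order of Bdh1. Of the 8, limma called 5 higher in TAC than in normal hearts (Hbb, Hbb-b1, Hbb-bs, Alas2 and Slc4a1), 3 lower in TAC-R than in TAC hearts (Hbb-b1, Hbb-bs and Slc4a1) and 1 higher in TAC-R than in normal hearts (Alas2). Among all rows it called 0.19% higher and 0.0647% lower in TAC than in normal hearts, 0.224% higher and 0.207% lower in TAC-R than in TAC hearts, and 0.0604% higher and 0.0302% lower in TAC-R than in normal hearts. Ahsp and Epb42 were in the background on all arrays. The part of these markers in the difference of Bdh1 was not tested. The 11 cardiomyocyte markers averaged 19.18 to 19.19 in TAC-R hearts, 19.09 to 19.11 in TAC hearts and 19.21 to 19.23 in normal hearts, a scale that the ceiling compresses.

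Fibroblast markers (8 of 9 measured) averaged 10.81 to 11.16 in TAC-R hearts, 12.11 to 12.18 in TAC hearts and 11.46 to 11.63 in normal hearts, and Tcf21 among them was in the background. Col1a2 and Col3a1, collagen genes of that list, were lower in TAC-R than in TAC hearts (limma, adjusted p = 0.0469 and 0.0269). Endothelial markers (8 of 9) averaged 10.07 to 10.47 in TAC-R hearts, 10.78 to 10.90 in TAC hearts and 10.64 to 10.85 in normal hearts, with Tie1 in the background. Smooth muscle and pericyte markers (8 of 8) averaged 9.31 to 9.78 in TAC-R hearts, 10.22 to 10.39 in TAC hearts and 9.61 to 9.62 in normal hearts, with Cnn1 in the background. Of these 8, limma called 1 higher in TAC than in normal hearts, beside 0.19% of all rows, and 0 in the other comparisons. Macrophage markers (9 of 9) averaged 7.52 to 7.61 in TAC-R hearts, 7.95 to 8.02 in TAC hearts and 7.22 to 7.38 in normal hearts, also the order of Bdh1. Among them Cd68, Cd163, Csf1r, Adgre1 and C1qb were in the background on all arrays. Beside Slc16a1, which was highest in TAC-R hearts, stood the atrial muscle markers (6 of 6), at 7.92 to 9.44 in TAC-R hearts, 6.35 to 6.38 in TAC hearts and 6.66 to 6.84 in normal hearts, with Sln and Bmp10 in the background. Myl7, the atrial myosin light chain, had 14.30 and 12.54 in TAC-R hearts, 7.48 and 7.51 in TAC hearts, and 8.40 and 8.43 in normal hearts, and was higher in TAC-R hearts in both comparisons (limma, adjusted p = 0.00315 against TAC and 0.0105 against normal). Of the 6 markers it was the only one called, beside 0.224% of all rows called higher against TAC and 0.0604% against normal. Nppa was 3.71 log2 units higher in TAC-R than in TAC hearts (limma, adjusted p = 0.0527). Myl4 had 8.72 and 5.91 in TAC-R hearts and 4.11 and 3.75 in TAC hearts (limma, adjusted p = 0.126), with only TAC-R replicate 1 above background. At an unadjusted p under 0.05 stood 5 of the 6 for TAC-R against TAC, Dkk3 included, beside 11% of all rows. Dkk3 had lower values in TAC-R than in TAC hearts, with 10.77 and 10.68 in TAC-R hearts, 11.33 and 11.37 in TAC hearts, and 10.73 and 10.46 in normal hearts, which did not pass for TAC-R against TAC (limma, adjusted p = 0.326). On TAC-R replicates 1 and 2 the atrial list stood at 9.44 and 7.92, and Slc16a1 at 15.41 and 15.93. Their parts in the results were not tested, and in whole-heart RNA fewer cells of a type and less RNA per cell cannot be told apart. Liver and fat markers gave little signal, with 5 of 6 hepatocyte markers, Alb among them, and 5 of 6 measured adipocyte markers, Adipoq among them, in the background on all arrays, as were all 4 measured markers of neurons and Schwann cells.

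**Figure D5:**
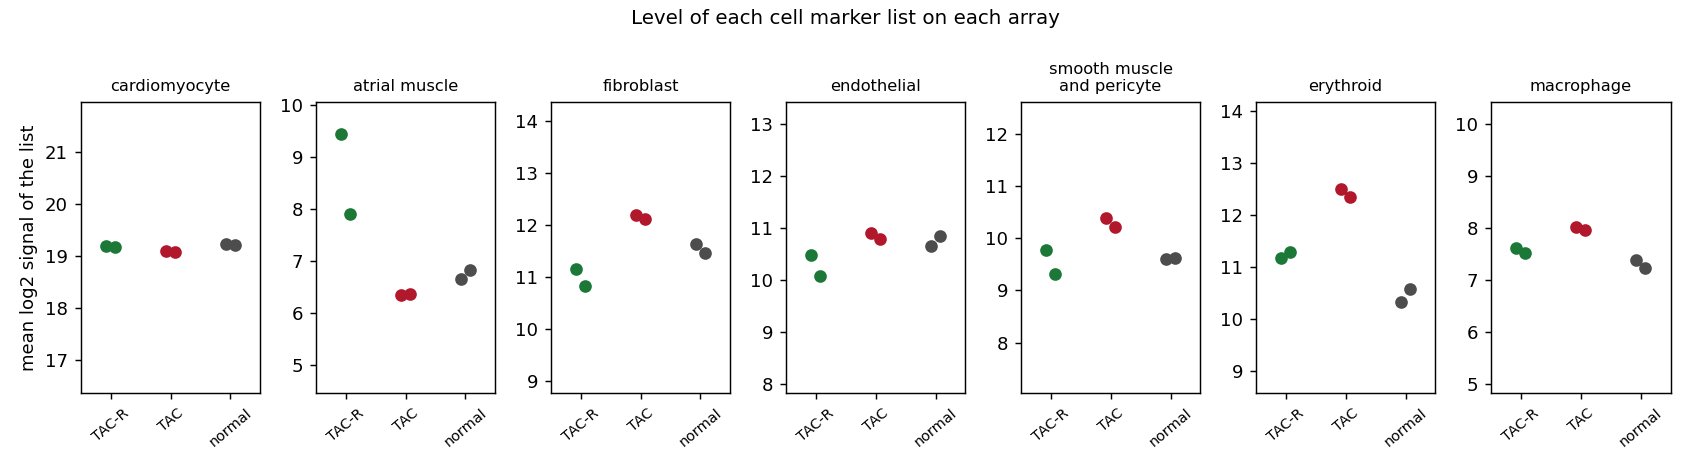
Mean log2 signal (vertical axis) of each cell marker list on each array, in TAC-R, TAC and normal hearts, with equal spans and 1 point per array. The erythroid list is highest in TAC hearts at 12.35 to 12.50, and the atrial list is highest in TAC-R hearts with the 2 arrays apart, at 9.44 and 7.92.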

How the data were processed

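RNA of whole rat hearts was measured on 6 arrays, grouped by the sample titles. The deposited values are log2 signals that the authors made with RMA in Expression Console at core-exon level, per the labels; no version is stated, and base 2 is taken from the ceiling of 19.9315. The values were not centred per gene, and the files hold no scanner intensities to set them against. Control rows (1646 of 24834) were left out. Of 23188 tested rows, 15049 had 1 symbol in the platform table, 0 had several and 8139 none, and updating symbols through RefSeq changed 0.

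limma 3.58.1 in R 4.3.3 fitted 1 mean per group to all 6 arrays, with 3 residual and 5.71 prior degrees of freedom, no covariate and no filter. Calls needed an adjusted p (Benjamini-Hochberg, all tested rows) below 0.05. The smallest p of a two-sided exact permutation test on 2 against 2 arrays is 0.33. The small number of arrays limits precision. A gene with several rows is given by the row of highest mean. The fit was tested on simulated data.

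The members and lists were chosen with earlier results of these data known. The text names the members, every measured ketone pathway gene, of each other fuel list the called genes and the 3 with the greatest difference between TAC and normal hearts, and the 10 genes most like and 5 most opposed to Bdh1. Neighbouring genes, promoters and the figures were added after the values were seen. Alternatives were an intensity trend, 2-group fits, a filter on dim rows, other scalings, other sets of rows, a replicate block and leaving out each array.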

Additional observations from a re-analysis of the deposited data

How the results depend on the processing

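The precision of each value rests on 2 arrays per group, and differences of genes in the background have no measured size. Bdh1 kept its direction under all 14 alternatives, which lends it no support. Its groups did not overlap, so leaving out 1 array could not turn the sign. The intensity trend, the 2-group fits, other sets of rows and the replicate block cannot change a difference of group means. For Bdh1, leaving out 1 array at a time gave 2.65 to 2.93 for TAC against normal hearts, -1.42 to -1.17 for TAC-R against TAC and 1.35 to 1.63 for TAC-R against normal. No member had a second row, so no other row could be tried. Of 204 values of the 5 other members, 195 kept their direction and their side of the threshold. Slc16a1 passed with the intensity trend, at 0.73 for TAC-R against TAC and 0.86 for TAC-R against normal (limma, adjusted p = 0.0387 and 0.026, over all alternatives 0.0387 to 0.633 and 0.026 to 0.698), which makes 1 member called in each of these comparisons. Emb made 1 ketone pathway gene called for TAC against normal, with the intensity trend and with median centring. The differences near 0 turned sign 7 times, and the cause was not tested. For TAC-R against normal, Acat1 was 0.0290 with median centring and -0.175 to 0.137 with 1 array left out (0.036 without normal replicate 2). Oxct1 was -0.126 to 0.0022 with 1 array left out, and Bdh2 was -0.0275 with quantile normalization and -0.0668 to 0.145 with 1 array left out. For TAC-R against TAC, Oxct1 was -0.0133 with quantile normalization.

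The count of rows called moved more, and the cause was not tested. For TAC against normal (59) it was 170 with the intensity trend, 35 with only the 2 groups, 38 with control rows kept in, and 0 (without TAC replicate 2) to 35 with 1 array left out. For TAC-R against TAC (100) it was 344, 37 and 41 in the same settings, 197 with dim rows left out, and 4 to 37 with 1 array left out. For TAC-R against normal (21) it was 156, 12 and 9, then 52 with dim rows left out, 54 with median centring, 37 without the rows at the ceiling, and 0 to 12 with 1 array left out. With the replicate block the counts were 36, 47 and 11. The labels say only that groups share replicate numbers, and the deviations of same-numbered arrays correlated at -0.0127 (TAC-R and TAC), -0.00932 (TAC-R and normal) and 0.0117 (TAC and normal), so the arrays were not taken as paired. Under the block no call of a member or ketone pathway gene changed.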
